A study of Rattus norvegicus with 6 samples.

Results

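The genes described here are 8 rat genes of the liver X receptor (LXR) pathway and of sterol efflux, taken by symbol: Nr1h2, Nr1h3, Ch25h, Abca1, Abcg1, Apoe, Lpcat3 and Soat1. Each of the 8 had a row in the deposited table of 18930 genes, and 5 had enough reads to be tested among 11870 genes. NRK-52E is an established epithelial cell line derived from rat kidney, and streptozotocin (STZ) is an alkylating drug that carries a sugar, enters cells through glucose transporters and damages DNA. The RNA-seq libraries came from wild-type NRK-52E cells given vehicle (Control, 3 samples) or exposed for 24 h to 10 mM STZ (3 samples), and the comparison asks how the transcriptome differs between the groups. The sources do not say whether the samples of a group were separate cultures, so the p-values measure only the spread between these samples, which may be technical. In STZ-treated cells, Abca1 rose 1.60-fold and Soat1 rose 1.26-fold, while Lpcat3 fell to 0.792 of the Control level. Nr1h2 fell to 0.873 of it in groups that overlapped, a call lost without Control replicate 2 or STZ replicate 3. Apoe did not pass the test, and Abcg1, Nr1h3 and Ch25h had between 0 and 3 reads in every sample. Of the other LXR target genes with enough reads, Fasn and Scd were lower with STZ, and so was Srebf1, whose call was lost in 4 of 13 alternatives.

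LXR are nuclear receptors that sense oxysterols, which are oxidized forms of cholesterol. Bound to DNA together with the retinoid X receptor (RXR), they keep their target genes low through corepressors until a ligand arrives, and then raise genes that move cholesterol out of the cell, load it onto apolipoproteins, remodel membrane phospholipids and make fatty acids. In the kidney, cholesterol efflux through ABCA1 is best known from podocytes, where it is reduced in diabetic kidney disease, and Abca1 is also a gene that p53 is known to raise.

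The Control libraries held 10430924, 10902792 and 12737131 counts (replicates 1, 2 and 3) and the STZ libraries 13921413, 11658253 and 15191349. Levels are given as CPM, the counts of a gene per 1000000 counts of its library after TMM scaling, and each gene was tested by the quasi-likelihood method of edgeR, with p-values adjusted over all 11870 genes by Benjamini-Hochberg. A gene is said to have risen or fallen where its adjusted p was under 0.05, and a log2 fold change is that of STZ over Control. Since these are bulk samples, fewer cells of a kind and less RNA per cell cannot be told apart. Because transcript lengths were not used here, CPM of different genes do not rank their transcripts by number, and where a gene is said to make up most of a summed level, that is a share of reads.

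Of the markers of kidney epithelium, 7 of 11 were in the table and 3 were tested. Their summed level was 1706, 1791 and 1793 CPM in the Control samples (replicates 1, 2 and 3) and 2287, 2291 and 2286 CPM in the STZ samples, in the same order. All STZ samples lay above all Control samples, and the sum was made up mostly of Krt8, a keratin of simple epithelia, whose log2 fold change was 0.48. Krt18, the usual partner of Krt8, and the renal markers Cdh16 and Pax8 did not exceed 10 reads per sample, and Cdh1, which encodes E-cadherin, had between 16 and 35. Cdh1 and Tjp1, which encodes a tight junction protein, were chosen after their values were seen. Tjp1 rose from 612 ± 11.6 CPM to 681 ± 6.31 CPM (SD, n = 3 each), a log2 fold change of 0.15 (edgeR adjusted p = 2.6e-04). The log2 fold change of Cdh1 was -0.69 (edgeR adjusted p = 0.0296), in groups that overlapped. Its call was lost by DESeq2 (adjusted p = 0.113) and, by edgeR, without Control replicate 1 (adjusted p = 0.113), Control replicate 3 (adjusted p = 0.0847), STZ replicate 1 (adjusted p = 0.0572) or STZ replicate 3 (log2 fold change -0.44, adjusted p = 0.223), with a range of 0.0142 to 0.223 over all alternatives. The labelled cell type was thus seen in Krt8 and Tjp1, while the other markers of this list that were in the table had at most 35 reads in any sample. Of the markers of the differentiated proximal tubule, 7 of 10 were in the table and 2 were tested. The sum was 59.0, 60.4 and 57.8 CPM in Control and 74.9, 82.5 and 87.1 CPM in STZ. It came mostly from Ggt1, a brush border enzyme with a log2 fold change of 0.73, while Aqp1, the water channel, had a log2 fold change of -1.25. Lrp2, Cubn, Slc34a1, Slc5a2 and Slc2a2, which encode receptors and transporters of the proximal tubule, had at most 10 reads in any sample.

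Macrophages are the cells in which LXR targets are best known, and 7 of 10 of their markers were in the table. The summed level was 104, 105 and 102 CPM in Control and 129, 122 and 122 CPM in STZ, nearly all of it from Cd14, whose log2 fold change was 0.26. Ptprc, Adgre1, Csf1r, Lyz2 and Mrc1, which define macrophages, were at or near 0, with at most 10 reads in any sample. Of the fibroblast markers, 9 of 10 were in the table, with a summed level of 2053, 2158 and 2262 CPM in Control and 1939, 1941 and 1970 CPM in STZ. Vim, chosen after its values were seen, made up most of this sum and had a log2 fold change of -0.12 (edgeR adjusted p = 0.0052), a call lost by edgeR without Control replicate 3 (adjusted p = 0.0537; range over all alternatives 3.1e-04 to 0.0537). Col3a1 had a log2 fold change of -1.35, and Col1a2, Lum, Pdgfra and Thy1 had at most 10 reads. Endothelial markers, 7 of 8 in the table, summed to 13.6, 15.1 and 15.1 CPM in Control and 16.4, 15.9 and 15.3 CPM in STZ, mostly from Egfl7, with Pecam1, Cdh5, Kdr, Tek and Tie1 at most at 10 reads and a log2 fold change of -1.15 for Vwf. Egfl7, chosen after its values were seen, had a log2 fold change of 0.28 (edgeR adjusted p = 0.0365). This call was lost by DESeq2 (adjusted p = 0.108) and, by edgeR, with library size only (adjusted p = 0.0649), with the upper quartile (adjusted p = 0.0521) and without Control replicate 1 (log2 fold change 0.17, adjusted p = 0.256), STZ replicate 1 (adjusted p = 0.0815) or STZ replicate 2 (adjusted p = 0.0957), with a range of 0.0265 to 0.256 over all alternatives. In each of these 5 lists the sums of the 2 groups did not overlap. The part of these markers in the values of the LXR genes was not tested.

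Of the 8 genes, 2 rose and 2 fell, while 25.9% of all tested genes were higher and 25.1% lower at the same threshold. This balance depends on scaling, since edgeR called 2664 higher against 3485 lower when scaling used library size only, and 2830 against 3252 when it used the upper quartile, while DESeq2, with its own scaling, called 2598 against 2451. Counts of 2 among 5 tested genes are too small to set these genes apart from all tested genes. No member passed both the adjusted p threshold and an absolute log2 fold change over 1 (0 of 5 by edgeR, 0 by DESeq2 and 0 by limma-voom), which 3.37% of tested genes did in either direction. Without adjustment, 4 members had p under 0.05 by edgeR. The groups did not overlap for 2 members that were higher in STZ and for 1 that was lower, and this held for 28.6% of tested genes in the higher and 27.7% in the lower direction. The median log2 fold change of all tested genes was -0.01.

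**Figure D1:**
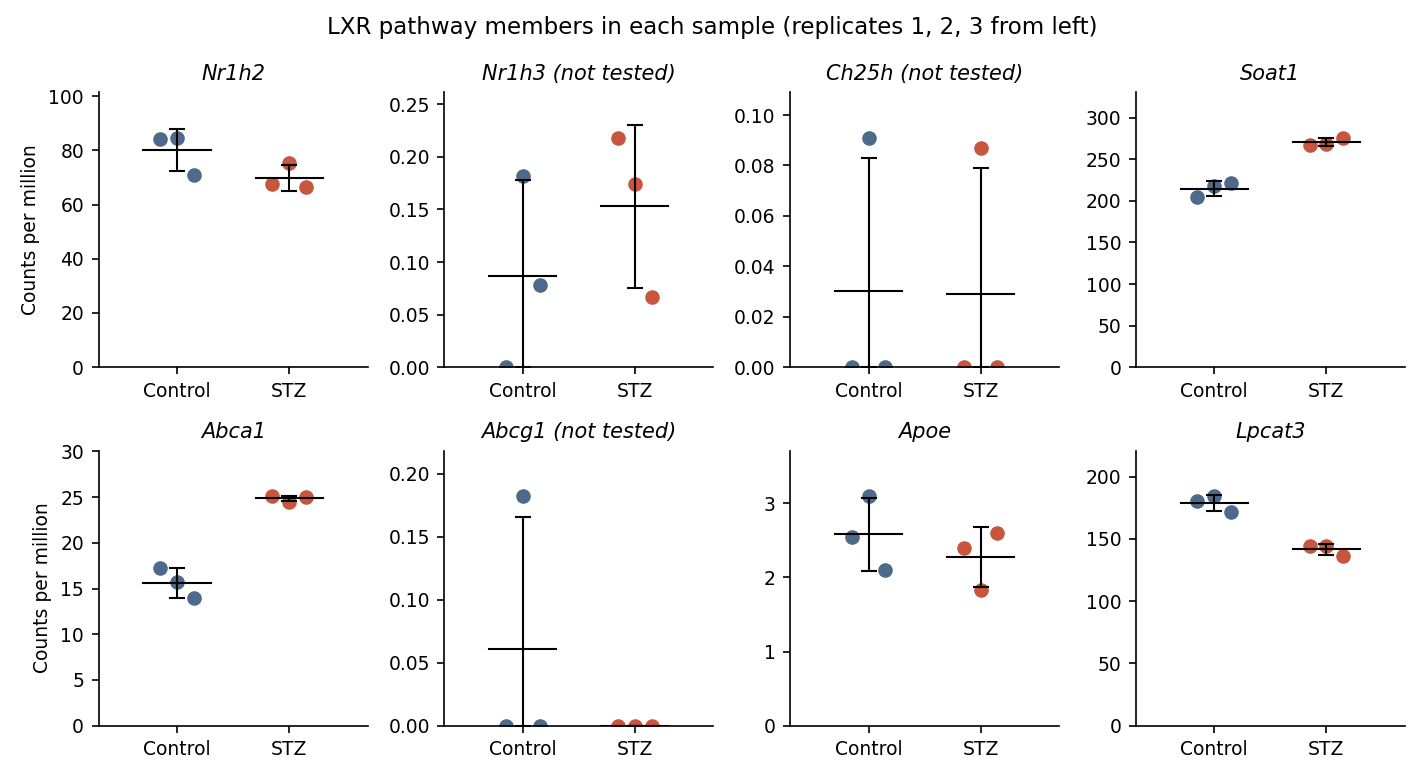
Level of each of the 8 genes in CPM (vertical axes, each from 0) in the 3 Control and 3 STZ samples; points are replicates 1, 2 and 3 from left to right, the long bar is the mean and the whiskers are 1 SD. Abca1 and Soat1 are higher and Lpcat3 is lower in all 3 STZ samples, Nr1h2 and Apoe overlap, and Nr1h3, Ch25h and Abcg1 rest on 0 to 3 reads per sample.

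Nr1h2 encodes LXRβ, the LXR found in most tissues. It had 84.4, 84.7 and 71.1 CPM in the Control samples (replicates 1, 2 and 3) and 67.7, 75.5 and 66.5 CPM in the STZ samples, in the same order. Control replicate 3 lay below STZ replicate 2, so the groups overlapped, while the other Control samples lay above all STZ samples. The mean was 80.1 ± 7.74 CPM in Control and 69.9 ± 4.88 CPM in STZ (SD, n = 3 each). The log2 fold change was -0.20 (standard error 0.06, 95% confidence interval -0.31 to -0.08), with an adjusted p of 0.0048 from edgeR's quasi-likelihood test. This call was lost without Control replicate 2 (log2 fold change -0.15, edgeR adjusted p = 0.0618) and without STZ replicate 3 (-0.16, edgeR adjusted p = 0.0620), and over all alternatives the adjusted p lay between 6.7e-05 and 0.0620. Nr1h3 encodes LXRα, the other LXR. It had 0, 2 and 1 reads in Control and 3, 2 and 1 reads in STZ. No sample had more than 3 reads, and a count of 0 allows up to 3 counts, or between 0.200 and 0.283 CPM in these libraries, for counting error only. A difference in Nr1h3 was therefore not detectable at this depth, and the log2 ratio of Nr1h2 to Nr1h3 (pseudocount 0.5) differed by -0.91 between groups that overlapped (exact two-sided permutation p = 0.4; the smallest possible with 3 against 3 is 0.1). The ratio rests on the 0 to 3 reads of Nr1h3, and the difference was -0.27 without Control replicate 1 and -1.40 without Control replicate 2.

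The list of LXR partners and coregulators held 12 genes, of which 11 were tested. By edgeR's test 0 were higher and 9 lower in STZ, and the median log2 fold change of the 11 was -0.21. Without adjustment 0 were higher and 10 lower at p under 0.05. DESeq2 gave 0 higher and 6 lower, limma-voom 0 and 9, and edgeR gave 5 lower without STZ replicate 1 and 7 without Control replicate 1 or STZ replicate 2. Tbl1xr1, a subunit of a corepressor complex, had the smallest p in the list, with 73.0 ± 3.17 CPM in Control and 56.4 ± 2.21 CPM in STZ (SD, n = 3 each) and a log2 fold change of -0.37 (edgeR adjusted p = 2.1e-07). The RXR genes and the corepressor gene named next were chosen after their values were seen. Rxra and Rxrb, which encode partners of LXR on DNA, had log2 fold changes of -0.17 and -0.36 (edgeR adjusted p = 0.0266 and 2.9e-06). The call of Rxra was lost by DESeq2 (adjusted p = 0.0876) and, by edgeR, without Control replicate 1 (adjusted p = 0.0833), STZ replicate 1 (adjusted p = 0.0604) or STZ replicate 2 (adjusted p = 0.0762), with a range of 0.0082 to 0.0876 over all alternatives. Ncor1, which encodes a corepressor, had a log2 fold change of -0.09 and did not pass the test (edgeR adjusted p = 0.0620). Its edgeR adjusted p was 0.0099 with library size only, 0.0218 with the upper quartile and 0.0129 without Control replicate 2, within a range of 0.0099 to 0.300 over all alternatives.

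Ch25h encodes a hydroxylase of cholesterol that makes an oxysterol ligand of LXR. It had 0, 1 and 0 reads in Control and 0, 1 and 0 reads in STZ. One read in a single sample of each group is under the floor of 3 counts, so no fold is given. Of 9 other enzymes that make or remove sterol ligands of LXR, 5 were tested, with 2 higher and 1 lower in STZ and a median of -0.14 for the log2 fold change of the list. With DESeq2 or without Control replicate 2, 1 was higher. The median turned sign without STZ replicate 3, to 0.04, and with no filter, to 0.05.

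Abca1 encodes the transporter that passes cholesterol and phospholipid to lipid-poor apolipoproteins, and it is the classic target of LXR. It had 183, 173 and 179 reads in the Control samples (replicates 1, 2 and 3) and 345, 282 and 374 reads in the STZ samples, in the same order. Scaled, these were 17.3, 15.7 and 14.0 CPM in Control and 25.1, 24.5 and 25.0 CPM in STZ. All 3 STZ samples lay above all 3 Control samples, and the STZ samples were close together. The mean rose from 15.6 ± 1.65 CPM to 24.8 ± 0.304 CPM (SD, n = 3 each). The log2 fold change was 0.68 (standard error 0.09, 95% confidence interval 0.50 to 0.85; edgeR adjusted p = 2.1e-08), under the fold-change threshold of 1. It was the largest absolute log2 fold change among the 5 tested members, and 4.92% of all tested genes had a higher value.

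Because Abca1 had the largest change among the members, the 250 bases before its start are shown, from RefSeq's promoter table for GRCr8 (chr5:72596474-72596723, minus strand, 5′ to 3′). Capitals mark an E-box, CACGTG, and after it the closest match to the element that LXR and RXR bind, a direct repeat of AGGTCA with a spacer of 4 bases, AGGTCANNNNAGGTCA, both searched on either strand.
Abca1: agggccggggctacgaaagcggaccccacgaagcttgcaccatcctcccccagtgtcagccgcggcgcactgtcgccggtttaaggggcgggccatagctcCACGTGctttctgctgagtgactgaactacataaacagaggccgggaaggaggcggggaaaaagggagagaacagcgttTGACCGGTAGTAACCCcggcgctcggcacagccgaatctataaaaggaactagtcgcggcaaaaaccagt

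The match in Abca1 began at position -70 from the start, read on the strand opposite to the gene, and differed from the repeat at 3 of 12 letters. The E-box began at position -149 and did not overlap it. Promoter windows of 300 bases, from 250 before to 50 after the start, were found for 7 of the 8 members, in 9 windows, since Apoe had 3. A repeat with at most 3 mismatches was in 21.9% of all 33469 windows, one with at most 4 in 77.6%, and an E-box in 6.42%. Among the 9 windows, that of Abca1 was the one with 3 mismatches and with an E-box, and in the other 8 the closest match had 4. A p53 half-site, which 7.98% of all windows held, was in 1 window of Apoe and in no other of the 9. For the other members that passed the test, 30 bases around the closest match are shown for comparison, with the 16 letters of the match in capitals (Soat1 chr13:71147786-71147815, minus strand; Lpcat3 chr4:159154529-159154558, plus strand; Nr1h2 chr1:104183923-104183952, minus strand; GRCr8). Such matches are descriptions of letters and do not show binding.
Abca1: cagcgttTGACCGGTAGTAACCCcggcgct
Soat1: gcgccgcAGGACCACCAATGGCAtccggga
Lpcat3: tcggcccCGCCCTCTTCCTACCTtgctgcg
Nr1h2: ccacttcCGGCCAAGGCATCTCAttcggtg

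Abcg1 encodes the transporter that passes cholesterol to high-density lipoprotein and works beside ABCA1. It had 0, 2 and 0 reads in Control and 0 reads in each STZ sample. Both groups were under the floor of 3 counts per library, so no fold is given, and no difference was detectable at this depth. The log2 ratio of Abca1 to Abcg1 was 8.52, 6.12 and 8.49 in Control and 9.43, 9.14 and 9.55 in STZ (pseudocount 0.5). In the 5 samples without a read of Abcg1 this ratio is the read count of Abca1 over the pseudocount, so it follows Abca1 and the depth of the library. The mean differed by 1.67, and by 0.87 without Control replicate 2, the sample that held the 2 reads of Abcg1, and nothing about Abcg1 can be read from it.

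Other transporters of the ABCA and ABCG subfamilies numbered 14, of which 8 were tested, with 2 higher and 1 lower in STZ and a list median of -0.05. With DESeq2, other scalings, or without Control replicate 2, Control replicate 3 or STZ replicate 2, 1 was higher, and the median lay between -0.08 and -0.02 over all alternatives. Abcg2, a multidrug and urate exporter, had the smallest p. Its level was 16.7 ± 0.680 CPM in Control and 26.2 ± 1.09 CPM in STZ (SD, n = 3 each), and its log2 fold change was 0.66 (edgeR adjusted p = 1.1e-08).

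The 5 genes whose profile over the 6 samples lay nearest to that of Abca1, among 9830 genes that carried a symbol and averaged 50 or more normalized counts, were Mxd4, Aif1l, Tspan15, Dzip1 and Npnt. Their root mean square distances from it, on centred log2 CPM, were 0.02, 0.04, 0.04, 0.05 and 0.05. Mxd4, a partner of Max that opposes Myc on DNA, had 79.5, 71.1 and 61.5 CPM in Control and 114, 112 and 110 CPM in STZ. As in Abca1, Control replicate 1 was the highest and Control replicate 3 the lowest of the Control samples, and the STZ samples were close together. The log2 fold changes of the 5 genes lay between 0.58 and 0.67. Because the 5 were picked for nearness over these same 6 samples, their like order and fold changes follow from the choice.

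Apoe encodes apolipoprotein E, an acceptor and carrier of exported cholesterol. It had 27, 34 and 27 reads in Control and 33, 21 and 39 reads in STZ, or 2.55, 3.09 and 2.11 CPM and 2.40, 1.82 and 2.60 CPM. The groups overlapped, with the highest and the lowest sample in Control replicate 2 and STZ replicate 2. The log2 fold change was -0.15 (95% confidence interval -0.64 to 0.33, edgeR adjusted p = 0.627), and this interval holds changes of both signs. The value was -0.0036 without Control replicate 2, -0.29 without Control replicate 3, -0.03 without STZ replicate 2 and -0.26 without STZ replicate 3, and the call was the same in each.

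Among 12 other apolipoproteins and lipoprotein receptors, 5 were tested, with 2 higher and 2 lower in STZ and a list median of -0.05. By DESeq2, and without Control replicate 1, Control replicate 2, STZ replicate 1 or STZ replicate 2, 1 was higher, and with library size only 3 were lower. The median was -0.03 without Control replicate 1, -0.18 without Control replicate 2, -0.16 without STZ replicate 1, -0.17 without STZ replicate 2 and -0.14 without STZ replicate 3, -0.09 with library size only and 0.24 with no filter, so it gives no direction for this list. Clu, which encodes clusterin, a secreted chaperone also called apolipoprotein J, had 540 ± 14.9 CPM in Control and 1201 ± 16.4 CPM in STZ (SD, n = 3 each). Its log2 fold change of 1.15 passed both thresholds (edgeR adjusted p = 3.1e-28), and all STZ samples lay above all Control samples.

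Soat1 encodes the acyltransferase that turns free cholesterol into cholesteryl esters for storage. It had 205, 218 and 221 CPM in the Control samples (replicates 1, 2 and 3) and 268, 269 and 276 CPM in the STZ samples, in the same order. All 3 STZ samples lay above all 3 Control samples. The mean rose from 215 ± 8.74 CPM to 271 ± 4.45 CPM (SD, n = 3 each), a log2 fold change of 0.33 (standard error 0.04, 95% confidence interval 0.25 to 0.41; edgeR adjusted p = 2.3e-09). Of all tested genes, 14.0% had a higher log2 fold change.

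Of 8 other genes of ester storage and lipid droplets, 6 were tested, with 4 higher and 1 lower in STZ and a list median of 0.35. The 1 lower gene, Acat1 (log2 fold change -0.15, edgeR adjusted p = 0.0157, chosen after its values were seen), encodes a mitochondrial thiolase and not an enzyme of cholesteryl esters. Its call was lost by edgeR without Control replicate 1 (-0.09, adjusted p = 0.194), Control replicate 2 (adjusted p = 0.0722) or STZ replicate 3 (adjusted p = 0.0955), and was kept without Control replicate 3 at -0.23, with a range of 1.6e-04 to 0.194 over all alternatives. Without Acat1, an alternative chosen after seeing the data, 5 were tested by edgeR, with 4 higher and a median of 0.37. The count of 0 lower (also at an unadjusted p under 0.05, by DESeq2 and by limma-voom) follows from leaving out the 1 lower gene. Plin3, which encodes a lipid droplet coat protein and was found in the table under another name, had the smallest p and a log2 fold change of 0.33 (edgeR adjusted p = 2.1e-08). Plin2, another coat protein, and Lcat, which esterifies cholesterol on lipoproteins, were chosen after their values were seen, with log2 fold changes of 0.42 and 0.70 (edgeR adjusted p = 2.5e-07 and 7.3e-04). Nceh1 encodes a hydrolase that frees cholesterol from its esters, the reverse of the reaction of SOAT1, and its own fold change was likewise chosen after its values were seen. It had 80.1 ± 3.46 CPM in Control and 103 ± 3.58 CPM in STZ (SD, n = 3 each), and its log2 fold change was 0.37 (edgeR adjusted p = 3.1e-08). The log2 ratio of Soat1 to Nceh1 was 1.31, 1.52 and 1.44 in Control and 1.36, 1.44 and 1.38 in STZ. The groups overlapped, and the difference of -0.03 was smaller than the spread between samples (exact two-sided permutation p = 0.7).

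Lpcat3 encodes the acyltransferase that puts polyunsaturated chains into membrane phospholipids, and it is a target of LXR. It had 181, 184 and 172 CPM in the Control samples (replicates 1, 2 and 3) and 144, 144 and 136 CPM in the STZ samples, in the same order. All 3 STZ samples lay below all 3 Control samples, the opposite order to Abca1. The mean fell from 179 ± 6.41 CPM to 142 ± 4.49 CPM (SD, n = 3 each), a log2 fold change of -0.34 (standard error 0.04, 95% confidence interval -0.42 to -0.25; edgeR adjusted p = 1.1e-08). Of all tested genes, 13.5% had a lower value. In the GRCr8 annotation the span of Lpcat3 overlaps Emg1 on the other strand, which was chosen after its values were seen and had a log2 fold change of -0.31, and the span of Nr1h3 overlaps Acp2 and small RNA genes. The library kit keeps strand, but whether the counting used strand is not given in the sources used here, so reads of Lpcat3 and Emg1 cannot be told apart with certainty. The other 6 members overlap no annotated gene.

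Of 12 other acyltransferases of lysophospholipids, grouped by reaction and not by family, 11 were tested. By edgeR 5 were higher and 1 lower in STZ, with a list median of 0.11. Agpat5, an enzyme that makes phosphatidic acid, had the smallest p, with 50.7 ± 5.74 CPM in Control and 66.5 ± 0.616 CPM in STZ (SD, n = 3 each) and a log2 fold change of 0.39 (edgeR adjusted p = 9.2e-07). The genes closest to Lpcat3 by name were chosen after their values were seen. Lpcat1 fell, with a log2 fold change of -0.45 (edgeR adjusted p = 5.9e-06), and Lpcat4 rose, with a log2 fold change of 0.15 (edgeR adjusted p = 0.0029).

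**Figure D2:**
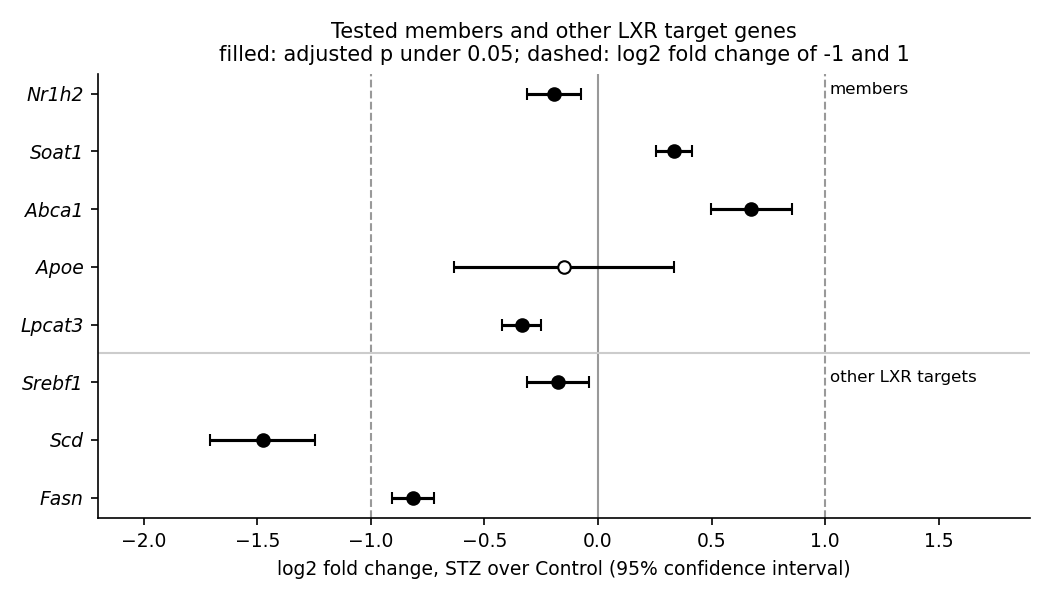
Log2 fold change of STZ over Control with its 95% confidence interval (horizontal axis) for the 5 tested members and the 3 other LXR target genes tested, from 3 samples per group. Filled points passed an adjusted p of 0.05, the open point (Apoe) did not, and of the 8 genes Scd alone lies outside the dashed lines at -1 and 1.

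Further genes that LXR agonists are known to raise numbered 15, of which 9 were in the table and 3 were tested. None was higher (0 by edgeR, 0 by DESeq2, 0 by limma-voom and 0 at an unadjusted p under 0.05 by edgeR), and all 3 were lower in STZ by edgeR, a direction opposite to that of Abca1. Their median log2 fold change was -0.81, and with no filter, which adds the 6 genes with few reads, the median of the list was -0.20. Srebf1 encodes SREBP1, through which LXR raises fatty acid synthesis. Its level was 37.2 ± 1.35 CPM in Control and 33.0 ± 1.96 CPM in STZ (SD, n = 3 each), and the log2 fold change was -0.18 (edgeR adjusted p = 0.0287). This call was lost by DESeq2 (adjusted p = 0.0994) and, by edgeR, without Control replicate 3 (adjusted p = 0.118), STZ replicate 1 (adjusted p = 0.125) or STZ replicate 3 (adjusted p = 0.0981), and its adjusted p lay between 0.0092 and 0.125 over all alternatives. Fasn, the fatty acid synthase, had 366 ± 16.4 CPM in Control and 209 ± 18.4 CPM in STZ (SD, n = 3 each), a log2 fold change of -0.81 (edgeR adjusted p = 3.7e-19). Scd encodes the desaturase that makes oleic acid. It had 245, 292 and 397 reads in Control and 169, 100 and 122 reads in STZ, and all STZ samples lay below all Control samples. Its mean fell from 26.9 ± 3.94 CPM to 9.70 ± 2.25 CPM (SD, n = 3 each), a log2 fold change of -1.48 that passed both thresholds (edgeR adjusted p = 1.5e-14). Fasn and Scd are targets of SREBP1 as well as of LXR. The 6 genes of this list that were in the table and not tested were Mylip, Arl4c, Abcg5, Pltp, Lpl and Apod, with between 0 and 4 reads in every sample.

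**Figure D3:**
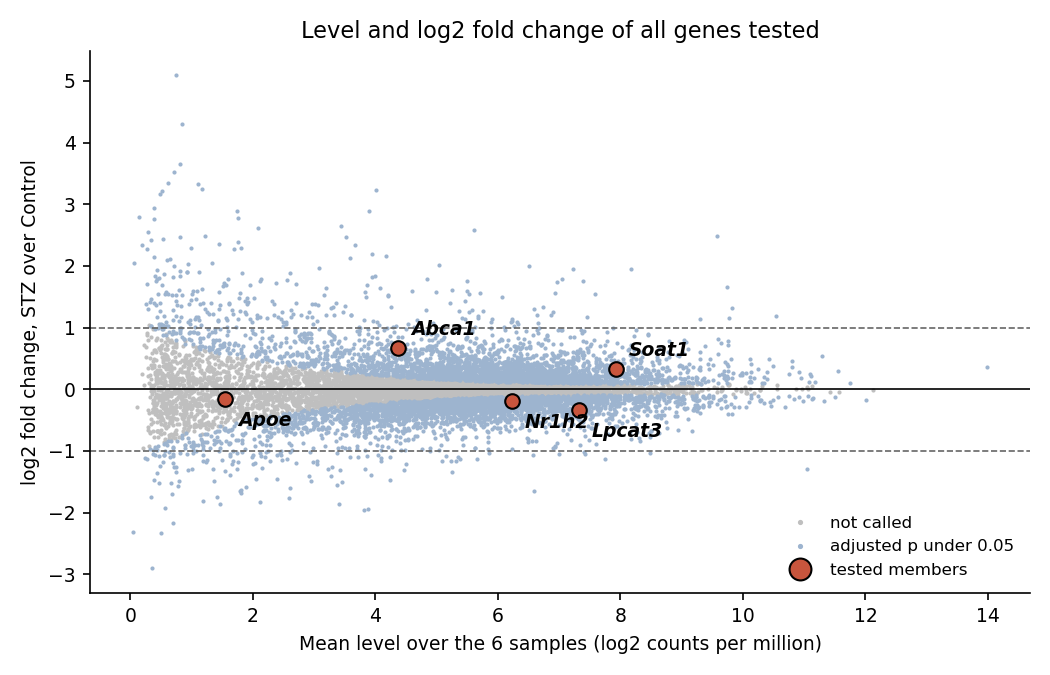
Log2 fold change of STZ over Control (vertical axis) against mean level in log2 CPM (horizontal axis) for all 11870 genes tested, with the 5 tested members as large points; light blue points passed an adjusted p of 0.05 and dashed lines mark log2 fold changes of -1 and 1. The members lie between the dashed lines, with Abca1 the highest at 0.68 and Lpcat3 the lowest at -0.34.

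Cholesterol reaches the pool that ABCA1 exports by way of lysosomes and transfer proteins. Of 13 genes of this transport, 12 were tested, with 5 higher and 3 lower in STZ and a list median of 0.11. With library size only, and without Control replicate 2, STZ replicate 2 or STZ replicate 3, 4 were higher, and by limma-voom 6. Stard4, a soluble sterol carrier that SREBP2 is known to raise, had the smallest p, with 114 ± 2.77 CPM in Control and 65.2 ± 2.54 CPM in STZ (SD, n = 3 each) and a log2 fold change of -0.80 (edgeR adjusted p = 6.6e-18). Npc1 and Npc2, which carry cholesterol out of lysosomes, were chosen after their values were seen. Npc2 had 413 ± 20.5 CPM in Control and 620 ± 11.8 CPM in STZ (SD, n = 3 each), and the log2 fold changes were 0.59 for Npc2 and 0.18 for Npc1 (edgeR adjusted p = 4.1e-17 and 0.0027). Lipa, the lysosomal acid lipase that frees cholesterol from esters of lipoproteins, was likewise chosen after its values were seen and had a log2 fold change of -0.36 (edgeR adjusted p = 1.7e-08).

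SREBP2 governs the opposite arm of sterol control, synthesis and uptake. Of 10 genes of this list, 9 were tested and all 9 were lower in STZ by edgeR, with a list median of -0.69, and Hmgcs1, which makes a precursor of mevalonate, had the smallest p and a log2 fold change of -1.03. A short list of 5 of the many genes that p53 raises was chosen with earlier results of these data known. All 5 were higher, with a median log2 fold change of 1.75, which describes these 5 and not p53 targets in general. Cdkn1a, which encodes the cell cycle inhibitor p21, and Mdm2, which encodes the ubiquitin ligase of p53, had log2 fold changes of 2.49 and 1.95, and the cell cycle genes Ccng1 and Btg2 had 1.66 and 1.75. Bax, which encodes a protein of cell death and was chosen after its values were seen, had 0.86, the lowest of the 5. The 0.68 of Abca1 was below all 5. Whether p53 or LXR had a part in the rise of Abca1 was not tested.

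**Figure D4:**
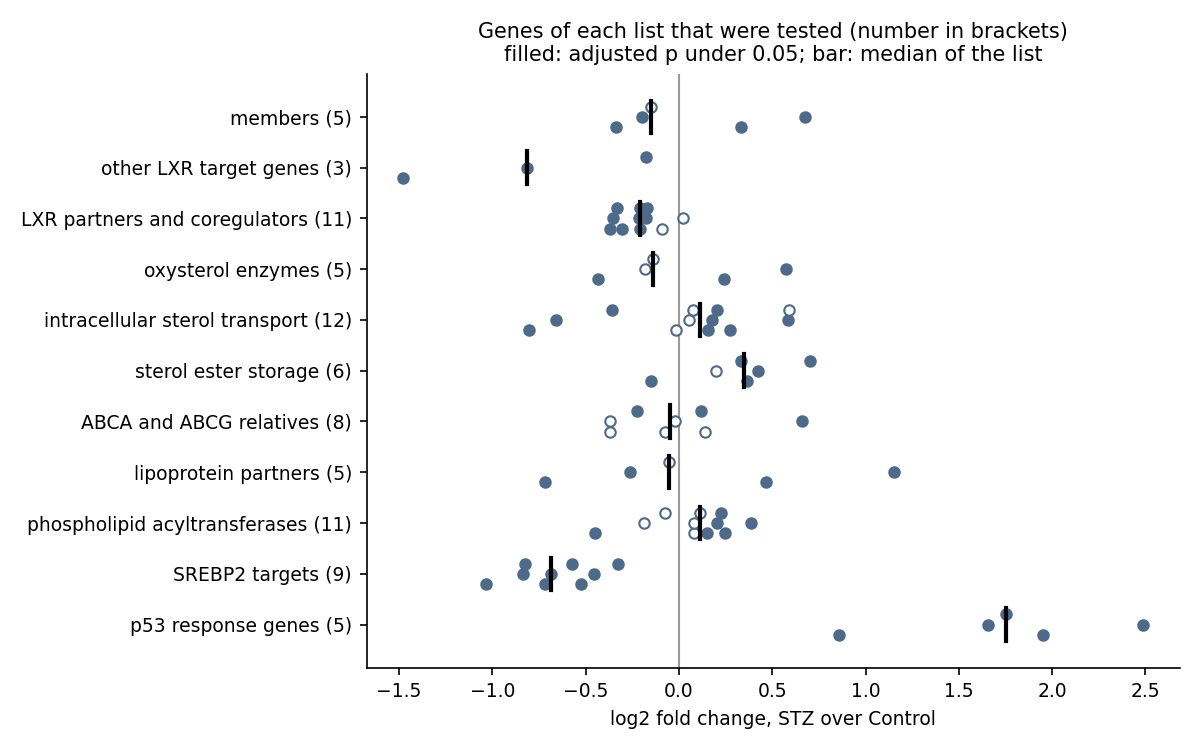
Log2 fold change of STZ over Control (horizontal axis) for every tested gene of the members and of 10 other lists, with the number tested in brackets; filled points passed an adjusted p of 0.05 and black bars are list medians. The medians were -0.81 for other LXR target genes (3 tested; -0.20 with no filter), -0.21 for LXR partners and coregulators, 0.35 for ester storage, -0.69 for SREBP2 targets and 1.75 for p53 response genes.

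The log2 fold change of Abca1 lay between 0.59 and 0.75 over the 13 alternatives in filter, scaling, tool, block and samples, and its highest adjusted p was 3.3e-06, by edgeR without STZ replicate 3. Soat1 lay between 0.30 and 0.36 and Lpcat3 between -0.37 and -0.31 over the same alternatives, all past the threshold. Nr1h2 lay between -0.28 and -0.15 and was past the threshold in 11 of the 13.

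**Figure D5:**
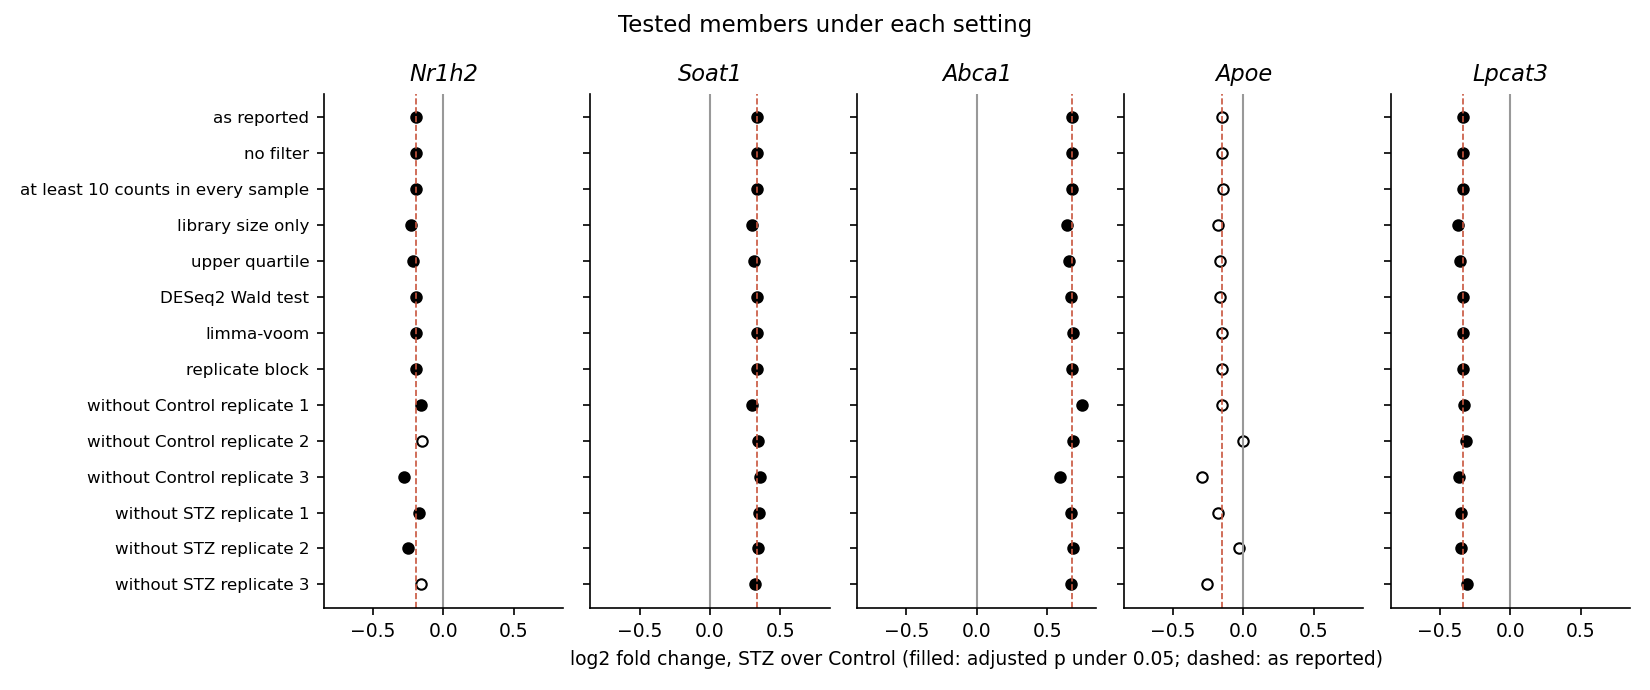
Log2 fold change of STZ over Control (horizontal axes) of the 5 tested members as reported and under each of 13 alternatives (rows); filled points had an adjusted p under 0.05 and the dashed line is the reported value. Abca1, Soat1 and Lpcat3 are filled throughout, Nr1h2 is open without Control replicate 2 and without STZ replicate 3, and Apoe is open throughout.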

How the data were processed

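The authors aligned reads of stranded mRNA libraries to the Rnor6 build of the rat with STAR (version 2.7.10a in the submitters' processing notes), assigned uniquely aligned reads to genes with featureCounts of Subread, and deposited raw counts per gene and sample without normalization. The 6 columns were assigned to groups by their labels. Members were found by symbol, and the genes and lists were chosen with earlier results of these data known.

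From these counts, TMM factors, filterByExpr at its default settings, the quasi-likelihood fit and Benjamini-Hochberg adjustment were run on the whole table (edgeR 4.0.16, R 4.3.3). The common biological coefficient of variation was 3.25%. Each standard error was taken from the F statistic, as log2 fold change over its root. Floors of 3 counts and intervals cover counting error or sample spread only; total counts between 10430924 and 15191349 limit precision for low genes. Per-sample log2 ratios were compared by exact two-sided permutation. No pair of libraries within a group was as close as sampling alone gives (chi-square per degree of freedom at least 1.85). The steps were tested on simulated data.

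Alternatives were no filter, at least 10 counts in every sample, library size only, upper quartile, DESeq2 1.42.0, limma-voom (limma 3.58.1), a block for replicate number, and leaving out each sample. Genes named are the members, the smallest p and all past both thresholds of each list, tested LXR targets, the 5 profiles nearest to Abca1, Cdkn1a and Mdm2; any other gene given a fold change is said to have been chosen after seeing its values. Markers and untested genes named by reads alone come from lists fixed beforehand. Most tested genes of the lists, among them 1 that meets this rule, are counted without values of their own. Promoters and overlapping genes came from RefSeq GRCr8, which held 8 of 8 member symbols; no coordinates of the authors' build are given. Figures were drawn with matplotlib.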

Additional observations from a re-analysis of the deposited data

How the results depend on the processing

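Of 623 refits of 48 named genes, 594 kept the side of the threshold, 25 lost the call (2 for Nr1h2, 4 for Srebf1, 4 for Rxra, 5 for Cdh1, 6 for Egfl7, 1 for Vim and 3 for Acat1), 4 gained one (Ncor1) and none reversed a call. The number of members higher in STZ was 2 and the number past both thresholds 0 under every alternative. The number lower was 2 under the other filters, scalings, tools and the block, and 1 to 2 with a sample left out; it was 1 without Control replicate 2 and without STZ replicate 3, where fewer samples were fitted and Nr1h2 lost its call. Other LXR target genes lower in STZ numbered 3 as reported, and 2 by DESeq2 and without Control replicate 3, STZ replicate 1 or STZ replicate 3; the cause was not tested. Without Acat1, chosen after seeing the data, 4 genes of ester storage were higher and 0 lower, the 0 being fixed by removing the 1 lower gene. The ratio of Soat1 to Nceh1 differed by -0.09 to 0.02 with a sample left out, that of Nr1h2 to Nr1h3 by -1.40 to -0.27 and that of Abca1 to Abcg1 by 0.87 to 2.07. Replicate numbers are shared between groups, but same-numbered samples did not deviate together (correlations across 10341 genes 0.03, -0.03 and 0.11, and Control replicate 1 correlated best with STZ replicate 2, at 0.08), so the numbers were not taken as pairs. With the replicate block, 2 members were higher and 2 lower, 3139 genes were higher and 3060 lower instead of 3070 and 2976, and of the named genes Ncor1 alone changed its call (adjusted p by edgeR 0.0481, lower). The median of all genes was -0.04 with library size only and -0.02 with the upper quartile. Depth left Abcg1, Nr1h3 and Ch25h untested; with no filter their adjusted p by edgeR was 0.360, 0.684 and 0.954.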
